A study of Rattus norvegicus with 7 samples.

Results

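Zinc transporter and metallothionein genes were followed across hippocampus and hypothalamus of the rat. The group was named by symbol: 5 genes of the Slc30 family (Slc30a1, Slc30a3, Slc30a4, Slc30a5, Slc30a9), 3 of the Slc39 family (Slc39a6, Slc39a10, Slc39a14) and the metallothionein genes Mt1a and Mt3. Of these 10 genes, 9 were found in both expression tables, among 15805 symbols that the tables share, and Slc39a10 was not analysed here. The measurements are RNA-seq levels in 7 libraries of male Sprague Dawley rats, 2 months old at the start, that received the omega-3 fatty acid DHA (docosahexaenoic acid) in the diet for 6 weeks. By the labels, 4 libraries are hippocampus and 3 are hypothalamus. All 7 thus come from DHA-fed males of the same strain, and the regular chow animals are not used here. The values therefore describe the tissues on this diet and not an effect of it. The labels do not say which animal gave which library.

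Zinc is moved across membranes by 2 families of carriers. Slc30 proteins, also called ZnT, mostly carry zinc out of the cytosol, either from the cell or into organelles and vesicles. Slc39 proteins, also called ZIP, carry zinc into the cytosol. Metallothioneins are small cysteine-rich proteins that bind zinc and copper inside cells. In forebrain, zinc is stored in the synaptic vesicles of a class of glutamatergic neurons, most densely in the mossy fibres of the hippocampus, and the transporter that fills these vesicles is ZnT3, the product of Slc30a3. When cytosolic zinc is high, the transcription factor MTF1 binds metal response elements and switches on metallothionein genes and Slc30a1.

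The DNA before the start sites is shown for 5 genes on which the comparisons turn: 3 metallothionein genes, of which Mt2A was called higher in hippocampus and Mt1a and Mt3 were not, and Slc30a1 and Slc30a3, whose windows do and do not hold the letters searched here. Each sequence covers the 250 bases before the annotated start, from RefSeq on the assembly GRCr8, read in the direction of transcription. Capitals mark matches to the core of the metal response element, searched as TGCACNC and TGCGCNC on both strands, where overlapping matches were each counted. RefSeq lists Mt1a under the symbol Mt1, and the window shown is that of the gene beside Mt2A. The Mt1a levels below come from a locus in another place of the tables, unless the locus beside Mt2A is named, so window and levels may belong to different loci. Mt2A is no member of the group but lies between Mt1 and Mt3 on the chromosome.
Mt1 (chr19:10832976-10833225, minus strand): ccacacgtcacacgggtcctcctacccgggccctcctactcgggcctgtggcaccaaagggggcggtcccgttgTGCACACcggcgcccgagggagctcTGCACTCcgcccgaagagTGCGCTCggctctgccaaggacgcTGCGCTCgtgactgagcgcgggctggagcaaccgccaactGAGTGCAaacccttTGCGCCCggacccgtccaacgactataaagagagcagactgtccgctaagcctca
Mt2A (chr19:10838709-10838958, minus strand): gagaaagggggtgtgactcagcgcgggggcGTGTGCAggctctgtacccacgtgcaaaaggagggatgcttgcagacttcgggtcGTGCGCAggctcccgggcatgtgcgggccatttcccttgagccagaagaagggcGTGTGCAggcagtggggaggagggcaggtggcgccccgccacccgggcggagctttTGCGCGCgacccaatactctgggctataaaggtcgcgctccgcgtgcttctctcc
Mt3 (chr19:10856081-10856330, minus strand): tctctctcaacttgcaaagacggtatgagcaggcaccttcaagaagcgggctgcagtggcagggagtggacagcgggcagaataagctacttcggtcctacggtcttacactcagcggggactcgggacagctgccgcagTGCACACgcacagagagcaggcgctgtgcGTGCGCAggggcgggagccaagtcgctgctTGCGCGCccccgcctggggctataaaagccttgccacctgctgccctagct
Slc30a1 (chr13:106021769-106022018, plus strand): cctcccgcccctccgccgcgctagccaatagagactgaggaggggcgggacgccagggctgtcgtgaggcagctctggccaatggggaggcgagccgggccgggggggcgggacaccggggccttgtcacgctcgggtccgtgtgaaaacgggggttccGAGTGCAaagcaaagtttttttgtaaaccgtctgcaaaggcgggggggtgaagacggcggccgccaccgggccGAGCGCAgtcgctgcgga
Slc30a3 (chr6:30997164-30997413, plus strand): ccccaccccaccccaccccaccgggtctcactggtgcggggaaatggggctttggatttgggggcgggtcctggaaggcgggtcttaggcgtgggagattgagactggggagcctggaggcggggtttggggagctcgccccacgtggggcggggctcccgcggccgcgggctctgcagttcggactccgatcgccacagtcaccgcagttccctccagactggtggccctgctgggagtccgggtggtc

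Windows of this length were found for 9 of the 10 genes, and Slc39a14 had no entry. Mt1 held 6 matches, Mt2A held 4 and Mt3 held 3. Of all 33469 windows of the same length, 0.0269% held at least 6, 0.266% at least 4 and 1.17% at least 3. In each of these 3 genes a TATAAA run began 31 or 32 bases before the start. Slc30a1, Slc30a4 and Slc30a5 held 2 matches each, where 4.90% of all windows held at least 2, and both matches of Slc30a5 overlap on opposite strands. No match was present in the windows of Slc30a3, Slc30a9, Slc39a6 and Slc39a10, which says only that these letters do not occur there. At least 1 match was present in 20.6% of all windows. Matches are letter runs in a window and not measured binding sites.

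**Figure D1:**
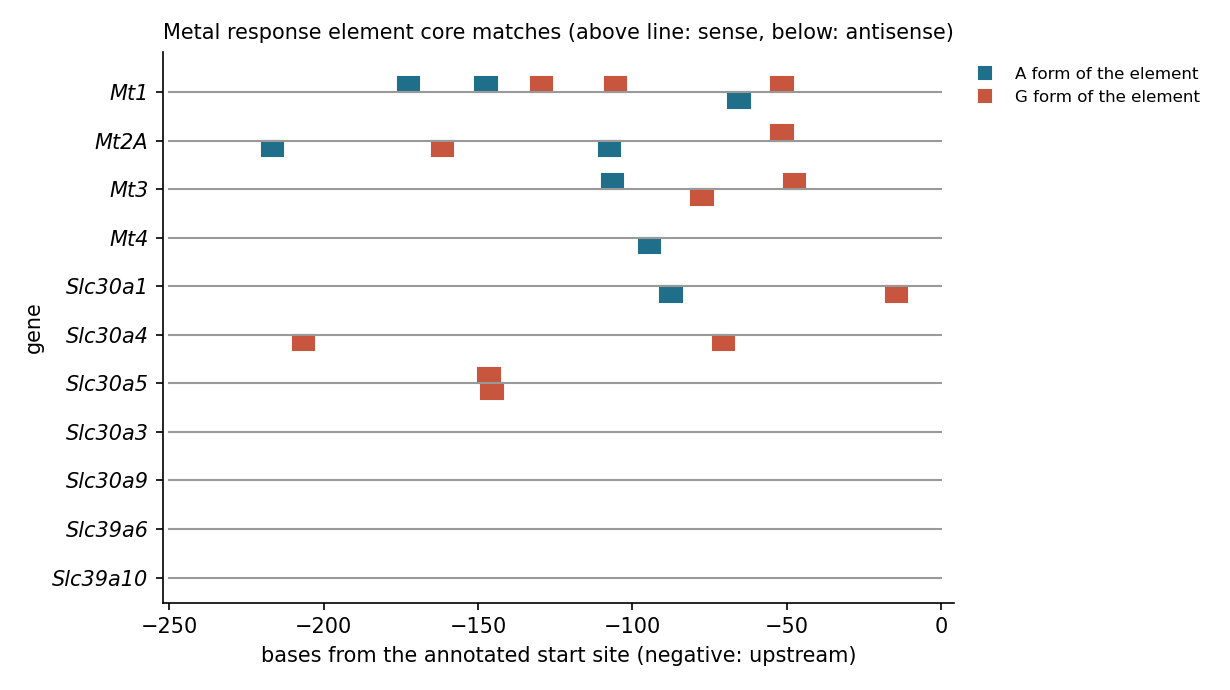
Positions of metal response element core matches in the 250 bases before the start site (x axis, bases) of 11 genes (rows). Boxes above a line are on the sense strand and boxes below on the antisense strand, and colour gives the A or G form of the core; Mt1 carries 6 boxes, Mt2A 4 and Mt3 3, and the 4 lowest rows carry none.

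Levels are FPKM (fragments per kilobase of transcript, scaled for library size), in the form the authors deposited. FPKM is per length, so genes can be ordered within a tissue. Each tissue has its own table, and a library's FPKM added up to 370020 to 391349 for hippocampus but to 443335 to 471484 for hypothalamus. For comparisons between tissues, each library was therefore rescaled to a sum of 1000000 over the shared symbols, and log2(value + 1) was used, a scale that understates the difference of low genes. Tissue and table cannot be told apart, so differences between tissues carry no p-value. Replicate 1 of each tissue stood apart in its low values: in pairs with it, at most 2.29% of loci under 0.1 FPKM lay at a common ratio, against 17.8% to 25.3% in pairs without it. For members whose difference moved by over 1.5 times or whose overlap changed without it, the value without it is also given. The tissue labels matched marker genes: of 5 excitatory neuron markers, 4 were higher in every hippocampus library and Slc17a6 in every hypothalamus library, and 3 of 3 inhibitory neuron markers were higher in every hypothalamus library. The choroid plexus list (7 genes, mean log2(FPKM + 1) as deposited) ranged from 1.16 to 5.34 over the hippocampus libraries and was lowest in replicate 2, with Otx2 listed at 0 in all 7 libraries. Levels in tissue cannot tell fewer cells of a type from less RNA per cell.

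Mt3, which encodes a brain metallothionein, was the most abundant gene of the group in both tissues. It read 1605, 1501, 1523 and 1509 FPKM in hippocampus replicates 1 to 4 and 1724, 1197 and 1869 FPKM in hypothalamus replicates 1 to 3. By mean level it ranked 10 of 16153 symbols in hippocampus and 16 of 16163 in hypothalamus. In hippocampus the next gene, Slc30a9, was 11.8-fold lower. Below Mt3, the hippocampal order was Slc30a9, Slc30a3, Slc30a5, Slc30a4, Slc39a6, Slc30a1, Slc39a14 and Mt1a. The ranges of neighbours overlapped between Slc30a9 and Slc30a3, and along the run of Slc30a5, Slc30a4, Slc39a6 and Slc30a1, whose means lay between 14.3 and 18.8 FPKM. In hypothalamus the order was Slc30a9, Slc39a6, Slc30a5, Slc30a4, Slc30a1, Slc39a14, Mt1a and Slc30a3. Neighbours there overlapped between Slc30a5 and Slc30a4, between Slc30a4 and Slc30a1, and between Slc39a14 and Mt1a. Slc30a3 thus came in position 3 in hippocampus and position 9 in hypothalamus, where every library lay under every library of Mt1a at the locus used. At the other Mt1a locus, with a hypothalamic mean of 1.48 FPKM, the ranges overlapped and Slc30a3 had the higher mean.

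**Figure D2:**
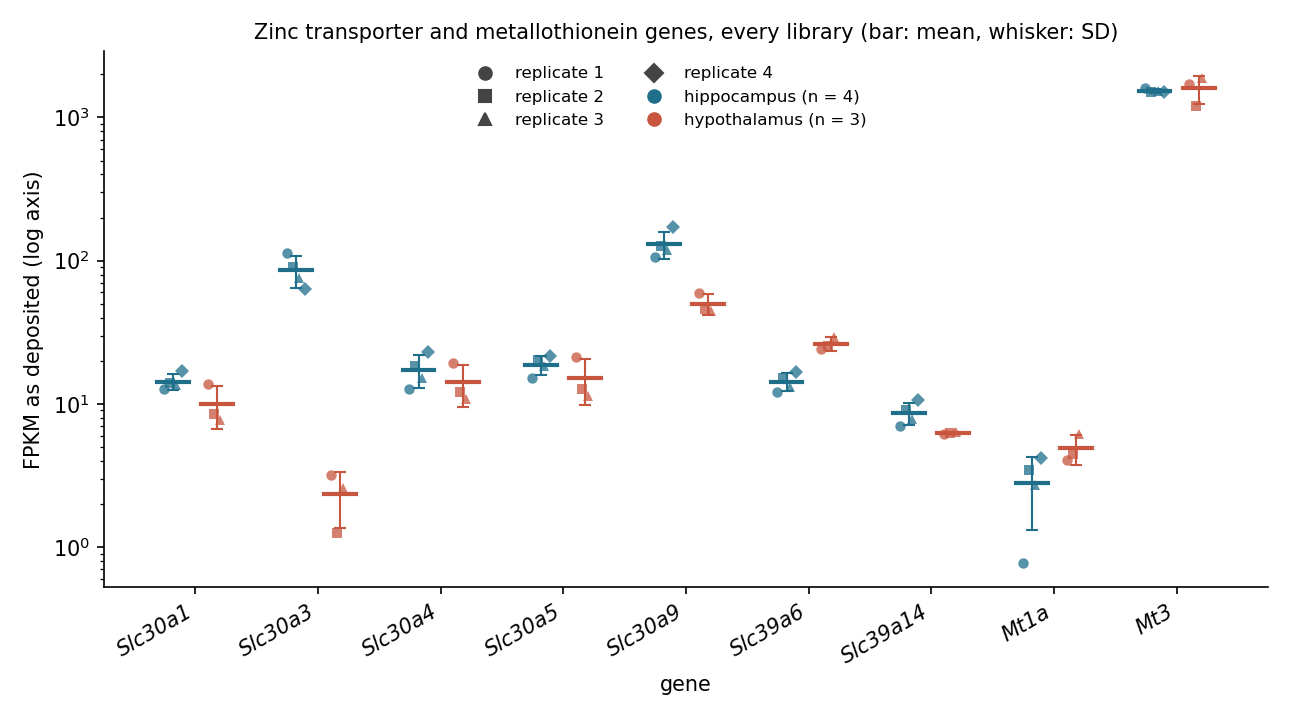
FPKM as deposited (y axis, log scale) of the 9 genes (x axis) in each of 4 hippocampus and 3 hypothalamus libraries. Points are libraries, bars are means and whiskers are SD; the tissues lie far apart for Slc30a3 (85.8 against 2.35 FPKM) and on top of each other for Mt3.

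Among the Slc30 genes, Slc30a3 showed the widest gap between the tissues. It read 113, 90.4, 75.4 and 63.9 FPKM in hippocampus replicates 1 to 4 and 3.20, 1.26 and 2.59 FPKM in hypothalamus replicates 1 to 3. Every hippocampus library was far above every hypothalamus library, and within hippocampus replicate 1 was the highest and replicate 4 the lowest. The means were 85.8 ± 21.4 FPKM (SD, n = 4) and 2.35 ± 0.992 FPKM (SD, n = 3), a 36.5-fold ratio as deposited. After rescaling the difference was 5.29 on the log2 scale, and it ranged from 4.58 to 5.53 over 16 alternatives, with no overlap of the tissues in any of them.

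Slc17a7 encodes VGLUT1, a vesicular glutamate transporter of forebrain excitatory neurons, and its libraries fell in the same order as those of Slc30a3. Slc17a7 read 847, 694, 574 and 571 FPKM in hippocampus and 0.985, 0.150 and 0.648 FPKM in hypothalamus. Both genes were highest in hippocampus replicate 1 and, in hypothalamus, highest in replicate 1 and lowest in replicate 2. The ratio of Slc30a3 to Slc17a7 within a library, which no scaling of the library can change, was 0.134, 0.130, 0.131 and 0.112 in hippocampus. It was 3.25 to 8.39 in hypothalamus, where Slc17a7 was under 1 FPKM. This pair was chosen after its values were seen, and the part of Slc17a7-expressing cells in the Slc30a3 difference was not tested. A metal response element core is absent from the Slc30a3 window printed above.

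Slc30a9 encodes ZnT9, a transporter of the mitochondrial membrane. It read 106, 127, 118 and 171 FPKM in hippocampus and 59.5, 45.6 and 44.4 FPKM in hypothalamus. All hippocampus libraries lay above all hypothalamus libraries, and the means of 131 ± 28.2 FPKM (SD, n = 4) and 49.9 ± 8.42 FPKM (SD, n = 3) gave a 2.62-fold ratio. The rescaled difference was 1.67 on the log2 scale and ranged from 1.36 to 1.90 over the alternatives, without overlap in any. Against Slc30a1 in the same library, Slc30a9 stood at 8.33 to 10.1 times in hippocampus and 4.30 to 5.75 times in hypothalamus, a ratio added after the values were seen.

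Slc30a1 encodes ZnT1, the zinc exporter of the plasma membrane. It read 12.7, 13.9, 13.5 and 17.0 FPKM in hippocampus and 13.9, 8.50 and 7.72 FPKM in hypothalamus. As deposited the tissues overlapped through hypothalamus replicate 1, and after rescaling they did not, with a log2 difference of 0.82. It was 0.51 with FPKM as deposited and 1.13 when replicate 1 of both tissues was left out. Slc30a4, whose product works in endosomal membranes, read 12.8, 18.3, 15.1 and 23.2 FPKM in hippocampus and 19.4, 12.1 and 10.9 FPKM in hypothalamus. Slc30a5, whose product loads zinc into the early secretory pathway, read 15.1, 20.1, 18.4 and 21.5 FPKM against 21.3, 12.7 and 11.4 FPKM. Both genes overlapped between the tissues under each of the 4 scalings with every library in. On the rescaled values, leaving out hypothalamus replicate 1 ended the overlap of both, and leaving out hippocampus replicate 1 also ended that of Slc30a5. Their rescaled differences were 0.59 and 0.64. With FPKM as deposited they were 0.29 and 0.33, and without replicate 1 of both tissues they were 0.98 and 1.01 with no overlap.

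The importers differed in direction. Slc39a6 encodes ZIP6, a plasma membrane importer, and read 12.1, 15.2, 13.1 and 16.8 FPKM in hippocampus and 24.0, 25.2 and 29.5 FPKM in hypothalamus. Every hypothalamus library was higher, and the means were 14.3 ± 2.08 FPKM (SD, n = 4) and 26.2 ± 2.88 FPKM (SD, n = 3), a 1.83-fold ratio as deposited. The rescaled difference was −0.57 on the log2 scale, short of 2-fold, and the tissues did not overlap under any of the 16 alternatives. Slc39a14 encodes ZIP14, which carries manganese and iron as well as zinc. It read 7.02, 9.04, 7.90 and 10.6 FPKM in hippocampus and 6.14, 6.23 and 6.38 FPKM in hypothalamus. Every hippocampus library was higher, by a rescaled difference of 0.71, which was 0.40 with FPKM as deposited, and the tissues did not overlap under any alternative. The hypothalamus libraries of Slc39a14 were the closest set of the group, with an SD of 0.0232 in log2(FPKM + 1). The ratio of Slc39a6 to Slc39a14, added after the values were seen, was 1.58 to 1.73 in hippocampus and 3.91 to 4.63 in hypothalamus.

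Mt3 showed no stable difference between the tissues. As deposited, its hippocampal mean was 1535 ± 48.1 FPKM (SD, n = 4), its hypothalamic mean was 1597 ± 354 FPKM (SD, n = 3), and the ranges overlapped. After rescaling every hippocampus library was higher, by 0.27 on the log2 scale, but under the other 3 scalings the tissues overlapped, and with FPKM as deposited the difference was −0.03. Hypothalamus replicate 2 was the low library, and without it the rescaled difference was 0.09. With upper quartile scaling the difference was 0.13. Its neighbour on the chromosome, Mt2A, read 39.5, 32.8, 32.8 and 34.0 FPKM in hippocampus and 3.67, 6.86 and 5.11 FPKM in hypothalamus. The ratio of Mt3 to Mt2A, added after the values were seen, was therefore 40.6 to 46.4 in hippocampus and 175 to 470 in hypothalamus. Both windows printed above hold the metal response element core, 3 times in Mt3 and 4 times in Mt2A.

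Mt1a, an inducible metallothionein gene, is uncertain because each table lists it at 2 loci. By the rule of the highest mean, the locus between the rows of Nip30 and Bbs2 was taken in both tissues. It read 0.778, 3.44, 2.71 and 4.21 FPKM in hippocampus and 4.03, 4.49 and 6.21 FPKM in hypothalamus, and the tissues overlapped. The rescaled difference was −0.62 on the log2 scale, −0.19 without hippocampus replicate 1, the low library, and −0.30 without replicate 1 of both tissues. With a pseudocount of 5 it was −0.40. The other Mt1a locus stands in the row before Mt2A, Mt3 and Mt4, and read 5.61, 0.643, 3.10 and 1.37 FPKM in hippocampus and 2.38, 1.65 and 0.402 FPKM in hypothalamus. Hippocampus replicate 1 was the lowest library at the first locus and the highest at the second. Summed over both loci, Mt1a read 6.38, 4.08, 5.81 and 5.58 FPKM in hippocampus and 6.41, 6.15 and 6.61 FPKM in hypothalamus, and the difference moved from −0.62 to 0.02 on the log2 scale. Metallothionein genes have near-identical copies, and how the authors assigned reads among them is not stated.

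A gene was called higher in a tissue when its libraries did not overlap with those of the other tissue and the rescaled means differed at least 2-fold. Of the 9 genes, all of which reached a mean of 1 FPKM, 2 were called higher in hippocampus, Slc30a3 and Slc30a9, and 0 in hypothalamus. Of all 10736 symbols compared, 14.5% were called higher in hippocampus, 13.4% in hypothalamus and 27.9% in either. Without the fold requirement, 6 of the 9 genes did not overlap, where 52.6% of all symbols did not. Of the 6, 5 were higher in hippocampus (28.2% of all symbols) and 1 in hypothalamus (24.4%), and nothing particular to the group is read from counts over so few genes. The median rescaled difference was 0.64 over the 9 genes and 0.05 over all symbols. Without replicate 1 of both tissues, the calls for hippocampus became 4, with Slc30a1 and Slc30a5 added, where 18.1% of all symbols were called.

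**Figure D3:**
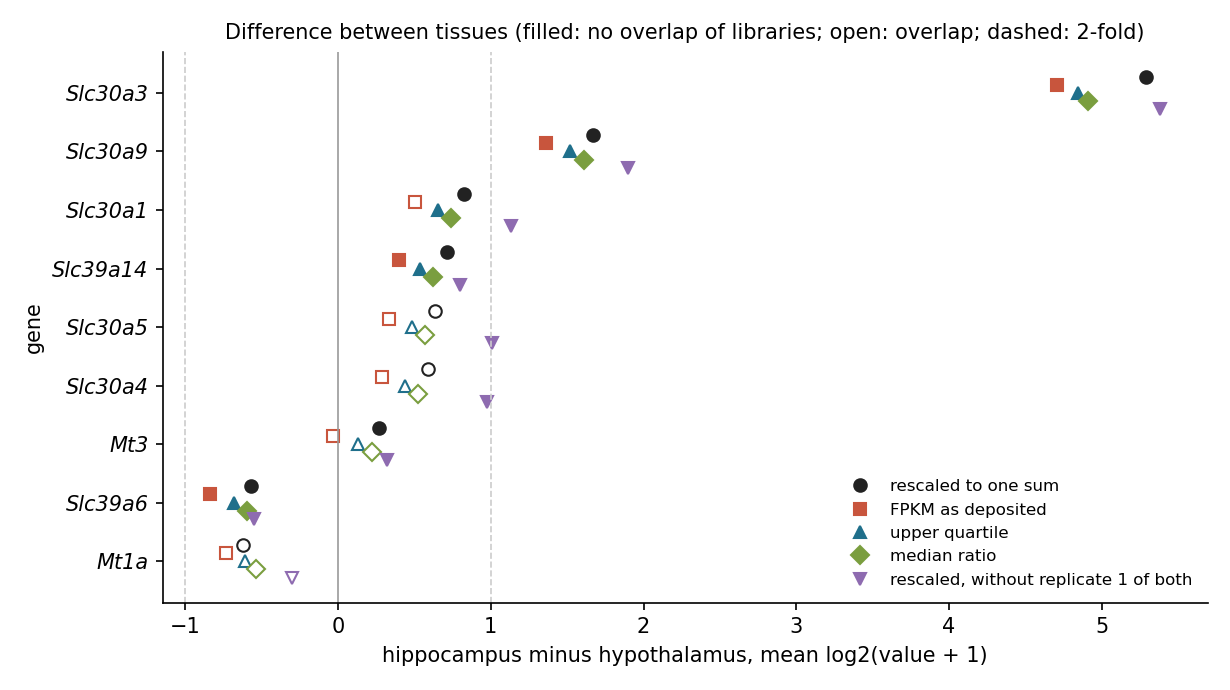
Difference between tissues in mean log2(value + 1) (x axis, hippocampus minus hypothalamus) for each gene (y axis) under 4 scalings and without replicate 1 of both tissues. Filled symbols mark no overlap of libraries and dashed lines mark 2-fold; Slc30a3 lies near 5 under every setting, Slc39a6 below 0 under every setting, and Mt3 changes sign with FPKM as deposited.

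The scaling moved the split of calls over all symbols. Of the calls, 52.0% were for hippocampus after rescaling to a common sum, 33.8% with FPKM as deposited, 44.3% with upper quartile scaling and 50.4% with median ratio scaling. Under these 3 other scalings, Slc30a3 and Slc30a9 were again the members called for hippocampus, where 8.64%, 10.8% and 12.1% of all symbols were called, and no member was called for hypothalamus, where 16.9%, 13.5% and 12% were. The median difference of all symbols was −0.21 as deposited. Ratios of genes within a library are free of this choice. The summed Slc30 genes stood at 10.8 to 13.6 times the summed Slc39a6 and Slc39a14 in hippocampus and at 2.14 to 3.89 times in hypothalamus. The ratio of Slc30a3 to Slc30a1 was 8.91, 6.48, 5.58 and 3.76 in hippocampus and 0.231, 0.148 and 0.336 in hypothalamus. Neither ratio overlapped between the tissues, and they differed by 2.08 and 4.71 on the log2 scale. The ratio of Mt3 to Mt1a overlapped, at 359 to 2063 in hippocampus and 266 to 428 in hypothalamus, and it carries the doubt about the Mt1a loci. Its difference of 1.01 on the log2 scale was 0.45 without hippocampus replicate 1, which holds the ratio of 2063.

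The make-up of the Slc30 genes shows the same contrast. Of their FPKM added together, Slc30a3 made up 21.6% to 43.6% in hippocampus and 1.57% to 3.37% in hypothalamus. Slc30a9 took 40.8% to 57.6% in hippocampus and 50.8% to 57.7% in hypothalamus, so its share overlapped although its level did not. Slc30a1, Slc30a4 and Slc30a5 each took a larger share in hypothalamus, without overlap. Slc30a5, for instance, took 5.79% to 7.67% in hippocampus and 14.8% to 18.1% in hypothalamus. Shares sum to a whole, so a high share of Slc30a3 lowers those of the others.

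**Figure D4:**
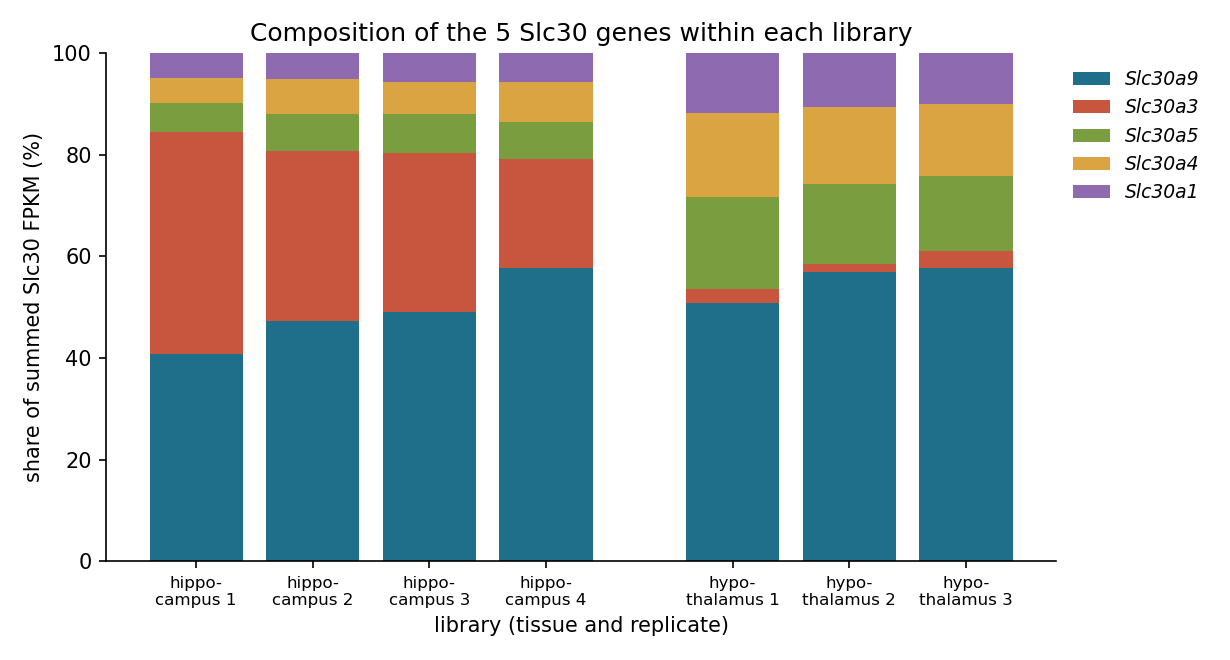
Share of each Slc30 gene in the summed FPKM of the 5 Slc30 genes (y axis, percent) in each of the 7 libraries (x axis). Slc30a3 takes 21.6% to 43.6% of the bar in hippocampus and at most 3.37% in hypothalamus.

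Replicates differed in a way that most of the genes shared. In hippocampus, 7 of the 9 genes had the same order of libraries, lowest in replicate 1, then replicate 3, then replicate 2, and highest in replicate 4. These were Slc30a1, Slc30a4, Slc30a5, Slc30a9, Slc39a6, Slc39a14 and Mt1a, and the order was picked out after the values were seen. Mt1a had it only at the locus used, since its other locus and the sum of both were highest in replicate 1. After rescaling, 6 of the 9 kept it, without Slc30a1. Of the 10309 symbols that averaged 1 FPKM or more there, 16.9% had this order. Slc30a3 had its extremes the other way round, highest in replicate 1 and lowest in replicate 4, as 21.8% of all symbols did. Mt3 was nearly level, from 1501 to 1605 FPKM. The median deviation of the 9 genes from the tissue mean was −0.25 in replicate 1 and 0.24 in replicate 4 on the log2 scale, against −0.03 and −0.02 over all symbols.

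Markers of a single cell type ran in both directions across the same libraries. Among astrocyte markers, Slc1a2 read 504, 687, 632 and 863 FPKM in hippocampus replicates 1 to 4, the order of the 7 zinc genes, and Slc1a3 read 172, 133, 134 and 97.4 FPKM, the reverse order. Aqp4 and Gja1 also had the order of the 7 genes, and Gfap had the reverse. The astrocyte list as a whole (7 genes) ranged from 7.37 to 7.54 in mean log2(FPKM + 1) over the hippocampus libraries. What sets this order was not tested.

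In hypothalamus, Slc30a1, Slc30a4, Slc30a5 and Slc30a9 were highest in replicate 1 and lowest in replicate 3, as 22.7% of 10757 symbols were. Slc39a6, Slc39a14 and Mt1a had the reverse order in FPKM as deposited, as 24.6% did. After rescaling Slc39a14, whose libraries lay within 6.14 to 6.38 FPKM, no longer had it. Replicate 1 read 1.79 to 1.87 times the lowest library for Slc30a1, Slc30a4 and Slc30a5, and the overlaps with hippocampus given above involved it. On the rescaled values, the overlap of Slc30a5 also ended when hippocampus replicate 1 was left out instead. The median SD of the genes in log2(FPKM + 1) was 0.230 in hippocampus (n = 4), beside 0.227 over all symbols, and 0.342 in hypothalamus (n = 3), beside 0.246. Without hypothalamus replicate 1 the hypothalamic median SD of the genes was 0.106, and the value over all symbols without that library was not computed. The widest hippocampal SD was that of Mt1a, at 0.685.

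**Figure D5:**
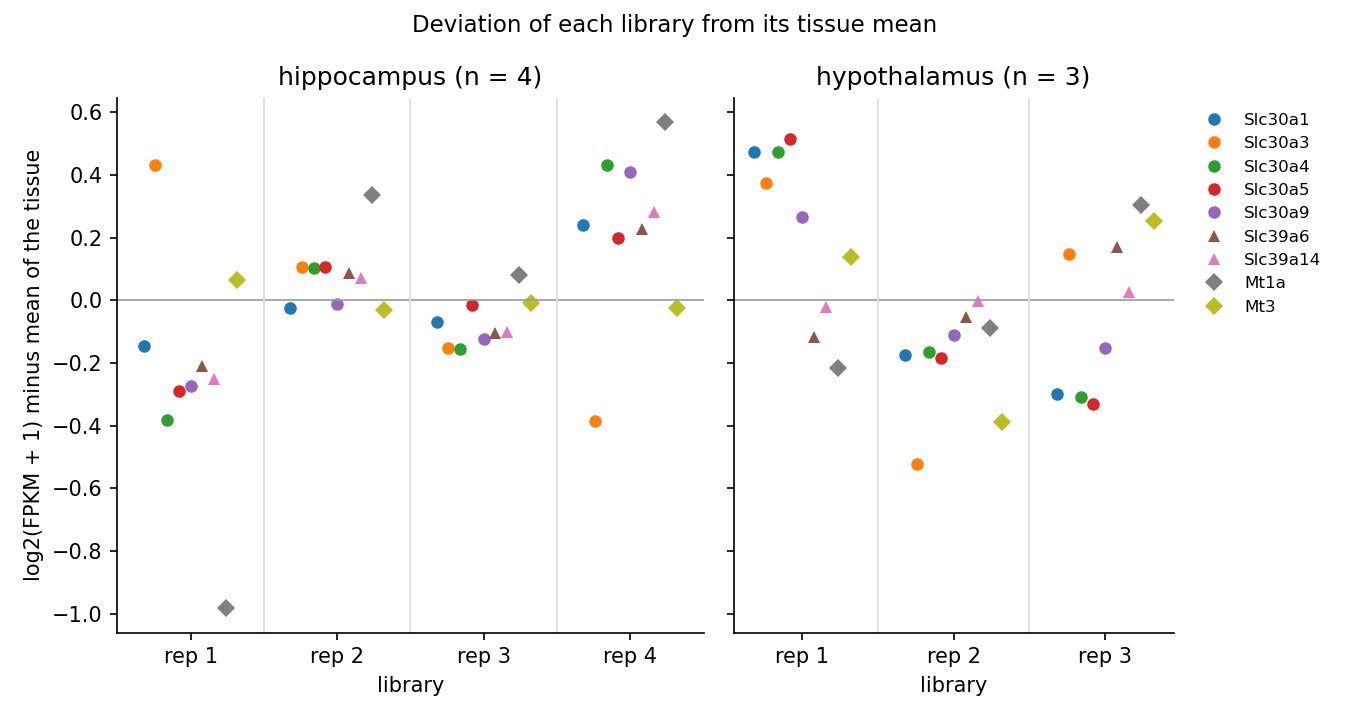
Deviation of each library from its tissue mean in log2(FPKM + 1) (y axis) for the 9 genes (colours; circles Slc30, triangles Slc39, diamonds metallothioneins) by library (x axis). In hippocampus 7 genes lie below 0 in replicate 1 and above 0 in replicate 4, and Slc30a3 lies the other way.

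The rest of the zinc pathway was taken from lists of 26 further genes, of which 20 were in both tables and 14 averaged 1 FPKM or more in either tissue. Of these 14, Mt2A was called higher in hippocampus and Tmem163 in hypothalamus, where 14.5% and 13.4% of all symbols were called, and 10 overlapped, where 47.4% of all symbols did. Without replicate 1 of both tissues, 5 of the 14 overlapped, where 74.0% of all symbols did not overlap, and the overlap ended for Slc30a7, Slc39a8, Slc39a9, Slc39a13 and Gpr39. The median rescaled difference of the 14 was 0.16. Mt2A, an inducible metallothionein gene, had a hippocampal mean of 34.8 ± 3.22 FPKM (SD, n = 4) and a hypothalamic mean of 5.21 ± 1.60 FPKM (SD, n = 3), a 6.67-fold ratio and a rescaled difference of 2.97. Tmem163, which encodes a zinc transporter of synaptic vesicles and the plasma membrane, read 4.38, 4.72, 5.22 and 5.87 FPKM in hippocampus and 25.9, 25.0 and 28.9 FPKM in hypothalamus. Its means of 5.05 ± 0.646 and 26.6 ± 2.05 FPKM gave a 5.27-fold ratio toward hypothalamus, the opposite side from Slc30a3.

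Ap3d1 encodes a subunit of the AP-3 adaptor, which sorts ZnT3 to synaptic vesicles. It was higher in every hypothalamus library, at 109 ± 11.2 FPKM (SD, n = 3) against 48.8 ± 3.74 FPKM (SD, n = 4), with a rescaled difference of −0.85 that stayed short of 2-fold. With FPKM as deposited it passed 2-fold. Slc30a10, a manganese exporter gene with 2 loci in each table, was the only other of the 14 without overlap, higher in hippocampus by 0.69, but the higher locus was a different one in each tissue. Of the 5 ZIP genes compared in these lists, Slc39a1, Slc39a8, Slc39a9, Slc39a12 and Slc39a13, all overlapped with every library in (47.4% of all symbols). Slc39a1 and Slc39a12 still overlapped without replicate 1 of both tissues, where 74.0% of all symbols did not. Slc30a2, Slc30a8, Slc39a2, Slc39a5 and Mt4 were under 1 FPKM in every library, and Slc39a4 had a mean under 1 FPKM in both tissues.

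Genes with the most similar pattern were sought for the 3 members with the largest differences, among 8468 symbols that averaged 5 FPKM or more in either tissue. Likeness was the root mean square difference between centred log2 values over the 7 libraries. Nearest to Slc30a3 were Ddn (0.23), Ntan1 (0.29) and Adra1d (0.33). Ddn, which encodes dendrin, a protein of neuronal dendrites, read 376, 259, 237 and 259 FPKM in hippocampus and 12.3, 4.77 and 6.68 FPKM in hypothalamus. Nearest to Slc30a9 were Exoc6 (0.06), Whsc1 (0.07) and Mrps33 (0.08). Nearest to Slc30a1 were Kbtbd4 (0.04), Plcl1 (0.07) and Sdhd (0.07). Kbtbd4 read 8.24, 9.03, 8.42 and 10.7 FPKM in hippocampus and 9.08, 5.10 and 4.98 FPKM in hypothalamus, high in hypothalamus replicate 1 like Slc30a1.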

How the data were processed

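RNA of 4 DHA hippocampus and 3 DHA hypothalamus libraries was measured by poly-A RNA-seq. The values are FPKM that the authors computed and deposited as 1 table per tissue. TopHat, Bowtie, Cufflinks and Cuffdiff and the build rn5 are named, per the submitters' processing notes. Annotation, strand handling and the scaling between libraries are not given in the sources used here. The tables hold no counts, so depth is unknown and counting error was not computed.

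Loci not marked OK throughout were dropped (86 of the hippocampus table, 24 of the hypothalamus table, none of a member). For symbols with several loci, the locus with the highest mean was used. Tables were joined by symbol. Across tissues, libraries were rescaled to a sum of 1000000 over 15805 shared symbols and compared as log2(value + 1), for 10736 symbols averaging 1 FPKM or more in either tissue. A call needed no overlap of libraries and at least 2-fold. No test was run between tissues, because each tissue has its own table and the scaling between them is not stated. Nothing in the labels shows that replicates are separate animals. The alternatives were pseudocounts of 0.1 and 5, no minimum mean or 5 FPKM, 3 other scalings, loci summed and libraries left out. The calling step was tested on simulated data. Python 3.11.15, pandas 2.3.3 and matplotlib 3.10.9 were used. Members, gene lists and tests were chosen with earlier results of these data known. Named genes were the members, called genes of the zinc, copper and iron lists, and the nearest 3 symbols of 3 members. Other genes were named after their values were seen.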

Additional observations from a re-analysis of the deposited data

Results flagged for a closer look

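In hippocampus, 36 genes of the zinc, copper and iron lists were examined for a library far from the other 3, by the distance from an extreme library to its neighbour as a ratio of the full range. The ratio exceeded the critical value of Dixon's test in 5 genes. The nominal rate of about 1 in 20, or 1.8, holds for independent genes with normally spread values, which was not checked here. The share of all symbols above the critical value was not computed, so no excess is read from these counts. None of the 9 members was among them.

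Gpr39, a zinc-sensing receptor gene, had a ratio of 0.929. It read 0.0642 FPKM in hippocampus replicate 1 and 12.8 to 13.8 FPKM in replicates 2 to 4, and at most 0.119 FPKM in hypothalamus. Without hippocampus replicate 1 it was called higher in hippocampus. Lypd1, which overlaps Gpr39 in the RefSeq gene table, read 39.6, 32.9, 35.2 and 25.4 FPKM in hippocampus and 39.9 to 40.8 FPKM in hypothalamus. The part of reads from Lypd1 was not tested.

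Slc39a12, which encodes the importer ZIP12, had a ratio of 0.974, at 3.69, 3.91 and 4.52 FPKM in hippocampus replicates 1 to 3 and 35.8 FPKM in replicate 4. In hypothalamus it read 1.90, 2.04 and 8.27 FPKM. Trpm7, a channel gene for divalent metals, had a ratio of 0.921 and was highest in hippocampus replicate 4, at 18.3 FPKM against 8.11 to 8.92 FPKM.

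Atox1, which encodes a copper chaperone, had a ratio of 0.857 and read 109 FPKM in hippocampus replicate 1 against 51.3 to 59.5 FPKM in the others. Cp, which encodes the ferroxidase ceruloplasmin, had a ratio of 0.884 and read 10.3 FPKM in hippocampus replicate 3 against 1.51 to 2.53 FPKM. In that library the meninges list was also highest among hippocampus libraries, at 3.56 against 1.82 to 2.55 in mean log2(FPKM + 1), with Ogn and Col1a2 of its 6 genes listed at 0 in all of them. The choroid plexus list was highest there as well, at 5.34 against 1.16 to 4.74. Their part in the Cp value was not tested.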

How the results depend on the processing

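No paired analysis was possible because the labels do not tie the replicate numbers to animals, and no test was run between tissues. The call of Slc30a3 and Slc30a9 for hippocampus held under all 16 alternatives, and no member was called for hypothalamus under any. Members called for hippocampus numbered 3 without hypothalamus replicate 1 (Slc30a1 added). They numbered 4 without replicate 1 of both tissues, where 18.1% of all symbols were called. Shares of all symbols were not computed with single libraries left out, so counts from those settings are not read as a trait of the genes. Members without overlap numbered 4 to 8, the 8 without replicate 1 of hypothalamus or of both tissues (74.0% of all symbols in the latter). The 4 came with FPKM as deposited, where the share of all symbols without overlap was not computed. The difference of Mt3 reversed with FPKM as deposited, to −0.032, and the cause was not tested. Other zinc genes called for hippocampus went from 1 to 2 without replicate 1 of both tissues, where the share of all symbols went from 14.5% to 18.1%. They ranged from 1 to 3 when single libraries were left out. Gpr39 was added without hippocampus replicate 1, and both Gpr39 and Slc39a12 without hypothalamus replicate 3. Other zinc genes called for hypothalamus became 2 with FPKM as deposited (Ap3d1 added), where 16.9% of all symbols were called. They were also 2 without replicate 1 of both tissues (Slc39a4 added), where 15.9% of all symbols were called. The median SD of members in hypothalamus ranged from 0.106 to 0.372 when single libraries were left out, and that over all symbols was not computed. The ratio of Mt3 to Mt1a within a library differed by 1.01 on the log2 scale between tissues in the main setting. The difference was 0.21 with loci summed and 0.45 without hippocampus replicate 1. This ratio no longer overlapped without hippocampus replicate 4 (1.29) or hypothalamus replicate 1 (1.20). The ratios of Slc30a3 to Slc30a1 and of the summed Slc30 members to the summed Slc39a6 and Slc39a14 did not overlap in any of their 8 alternatives. Since FPKM carries no depth, low values such as those of Mt1a and of Slc30a3 in hypothalamus have an unknown counting error.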

Other observations

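Genes that handle copper and iron were also listed, and 12 of 15 were compared. Of these, 4 were called higher in hypothalamus, Atox1, Fth1, Ftl1 and Steap2, and 0 in hippocampus, where 13.4% and 14.5% of all symbols were called. Atp7a and Atp7b, copper pump genes, also lay higher in every hypothalamus library, which makes 6 of the 12, where 24.4% of all symbols did. Both were low, with hippocampal means of 0.985 and 0.743 FPKM. Rescaled Atp7a barely escaped overlap, at 3.66 in hippocampus replicate 3 and 3.69 in hypothalamus replicate 3. The median rescaled difference of the 12 was −0.63 on the log2 scale.

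Fth1 and Ftl1 encode the heavy and light chains of ferritin, the iron store of the cell. Fth1 averaged 941 ± 210 FPKM over hippocampus libraries (SD, n = 4) and 3516 ± 212 FPKM over hypothalamus libraries (SD, n = 3). Ftl1, listed in the tables as Ftl, read 5.58 ± 1.16 and 62.0 ± 4.20 FPKM. Ferritin genes have many copies in the genome, so these values are uncertain. Atox1 read 68.4 ± 27.2 and 213 ± 12.5 FPKM. Steap2, a metalloreductase gene with 2 loci in each table, read 3.30 ± 0.965 and 12.2 ± 2.18 FPKM. Sod1, whose product binds copper and zinc, overlapped, at 186 to 226 FPKM and 163 to 261 FPKM. Of the 12 genes, 6 overlapped, where 47.4% of all symbols did. Without replicate 1 of both tissues 3 overlapped, where 74.0% of all symbols did not, and the overlap ended for Sod1, Tfrc and Slc25a37.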
